A study of Macaca mulatta with 27 samples.

Results

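The heat shock proteins and molecular chaperones were followed through all 27 RNA-seq libraries of a rhesus macaque pluripotent stem cell (PSC) study. Members were taken by symbol: the HSPA, HSPB, HSPD, HSPE and HSPH genes, the HSP90 genes, the DNAJA, DNAJB and DNAJC genes, CCT2 to CCT8 with their related symbols, and TCP1. This rule found 80 of the 17967 gene symbols in the count tables, and it also took in HSPB11, HSPBAP1 and HSPBP1, whose symbols fit the pattern. The symbol rule itself uses no measured value, but it was set with earlier results of these data known. HSPA1A, HSPA1B, HSPA1L, HSPA7 and DNAJC11 were not analysed here. The study set 6 libraries of conventional, primed cells against 3 libraries of each of 7 protocols meant to move the cells towards the naive state. All cells came from a single clone, LyonES-tGFP-(S3), of a rhesus embryonic stem cell line that carried tauGFP under the CAG promoter and STAT3-ERT2, a fusion that tamoxifen activates, from a lentivirus. Tamoxifen was part of TL2i, where it was joined by LIF and inhibitors of MEK and GSK3β, and of TL-CDK8i, where CNIO-47799, an inhibitor of CDK8 and CDK19, took the place of both inhibitors. E-NHSM, 4i/L/b, NHSM-v, t2iLGöY and LCDM (EPS) were used without tamoxifen. Primed cells were passaged mechanically as clumps and the cells of all 7 protocols as single cells after enzymatic dissociation, so protocol and passaging cannot be told apart.

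Chaperones bind unfolded or partly folded proteins and use cycles of ATP binding and hydrolysis to help them reach their native form. HSP70 proteins (HSPA genes) are loaded with clients by J-domain proteins (DNAJ genes) and reset by exchange factors such as HSP110. HSP90 then matures kinases and hormone receptors, and the ring-shaped chaperonins, TRiC in the cytosol and HSP60 with HSP10 in mitochondria, fold proteins inside a closed chamber. The endoplasmic reticulum (ER) has its own HSP70 and HSP90, and small heat shock proteins hold aggregation-prone proteins without using ATP. Part of the family is induced by heat and proteotoxic stress through heat shock factors, ER members are induced by the unfolded protein response, and pluripotent cells are known for high chaperonin levels.

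Total counts per library ran from 7111886 to 20760914, and 3 counts, used as the detection floor, correspond to 0.141 to 0.429 CPM by library. Levels are CPM, counts scaled to a common library total, with library sizes adjusted by the trimmed mean of M-values (TMM). CPM does not correct for gene length, so levels are compared between groups and never between genes. A member was called when the adjusted p of edgeR's quasi-likelihood test, with Benjamini-Hochberg adjustment over all genes tested, was under 0.05. The 7 comparisons share the same primed libraries. Nothing in the labels says that libraries of a group came from separate cultures, so p-values measure the spread between these libraries, which may be technical. In the RefSeq annotation, used here for positions only, 26 members overlap another coding gene, among them CCT3, CCT4, TCP1, HSPA5, HSP90B1, HSPA12A, HSPA4L, DNAJC2, DNAJC7, DNAJC17 and DNAJA3. The strand setting of the counting is not given in the sources used here, so reads of overlapping genes may be mixed, as may those of members with near-identical copies such as HSPA8.

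The primed columns carry the letter J or K and the numbers 1 to 3, and the letters could not be tied to the labelled sets of primed cells. Between the letters 3.73% of all genes were called, and 3 of 68 members: K libraries held less DNAJC4 (log2 difference -1.23, adjusted p = 0.041), more HSP90AA1 (0.33, adjusted p = 0.043) and less HSPA5 (-0.31, adjusted p = 0.011). At an unadjusted p under 0.05 the number was 16. Calls were recomputed without each library in turn, with the J or the K libraries alone, and with other normalizations, filters, fits and tools, 17 alternatives for most members beside a minimum fold change, and a call that any of the 17 ended is marked so. The calls of DNAJB12, DNAJB13, DNAJC5, DNAJC6, DNAJC8, DNAJC22, DNAJC25, DNAJC28, HSPBAP1 and HSPBP1 were not recomputed one by one.

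The naive and embryonic stem cell labels were set against marker genes. POU5F1, a core pluripotency factor, averaged 1182 CPM in primed cells, 1365 in E-NHSM and 502 in TL-CDK8i, but 6.44 or less in TL2i, 4i/L/b, NHSM-v, t2iLGöY and LCDM (EPS). These 5 are called the POU5F1-low protocols. The sum of 9 pluripotency markers was 3283 to 3705 CPM in primed libraries, 3714 to 3845 in E-NHSM, 1319.7 to 1811 in TL-CDK8i and 443 to 513 in TL2i. It was 364 to 372 in LCDM (EPS), 149.6 to 156 in 4i/L/b, 125 to 130.1 in t2iLGöY and 110.3 to 119 in NHSM-v. NANOG was at or under the floor in 4i/L/b, NHSM-v, t2iLGöY and LCDM (EPS), PRDM14 in 4i/L/b, NHSM-v and t2iLGöY, TDGF1 in 4i/L/b and t2iLGöY, and ZFP42 in NHSM-v and t2iLGöY. The sum of 8 neural markers was 2336 to 2651 CPM in primed libraries, 1313 to 1463 in E-NHSM, 2068 to 2166 in TL-CDK8i and between 2809 and 6559 in the POU5F1-low protocols, the highest values being those of LCDM (EPS). The sum of 8 fibroblast markers was 1138 to 2407 CPM in primed, 407 to 451 in E-NHSM, 777 to 1006 in LCDM (EPS), 3420.4 to 4030.2 in t2iLGöY, 2958 to 5750.3 in TL2i, 7864 to 8409.5 in NHSM-v, 8710.0 to 11281 in TL-CDK8i and 11628 to 15106 in 4i/L/b. Markers of trophoblast summed to 2.96 to 236 CPM over all libraries, highest in TL-CDK8i, and those of endoderm and mesoderm to 0.361 to 63.1. LUM and DCN of the fibroblast list were at 0 in primed, E-NHSM and t2iLGöY libraries. In these bulk libraries fewer cells of a type and less RNA per cell cannot be told apart, and the part of these markers in the results was not tested.

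Far more chaperone genes fell than rose in the POU5F1-low protocols. Against primed cells, TL2i had 10 higher and 31 lower of 72 members tested, 4i/L/b 12 higher and 33 lower of 70, NHSM-v 12 higher and 30 lower of 69, t2iLGöY 13 higher and 29 lower of 71 and LCDM (EPS) 10 higher and 33 lower of 69. TL-CDK8i had 14 higher and 25 lower of 70, and E-NHSM 9 higher and 14 lower of 70. Some numbers of higher members rested on single libraries. They were 6, 5 and 6 in TL2i without its library 1, 2 or 3, 7 and 7 in 4i/L/b without library 1 or 2, 6 in LCDM (EPS) without library 3, and 9 and 8 in TL-CDK8i without library 2 or 3. One joint fit of all groups gave 16 higher in LCDM (EPS), and the K primed libraries alone gave 14 higher in E-NHSM. Over all genes tested, 26.2% were called in E-NHSM (11.1% higher, 15.1% lower), 46.1% in TL-CDK8i (22.3% and 23.8%), 50.7% in TL2i (25.6% and 25.2%) and 55.6% in 4i/L/b (26.6% and 29.0%). The shares were 58.6% in NHSM-v (28.0% and 30.6%), 54.3% in t2iLGöY (27.1% and 27.2%) and 57.1% in LCDM (EPS) (28.2% and 28.9%). The members' median log2 fold change was 0.05 in E-NHSM, -0.15 in TL-CDK8i, -0.25 in TL2i, -0.22 in 4i/L/b, -0.36 in NHSM-v, -0.23 in t2iLGöY and -0.38 in LCDM (EPS). The medians of all genes were 0.02, 0.02, 0.07, 0.01, -0.02, 0.02 and 0.03 in the same order.

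**Figure D1:**
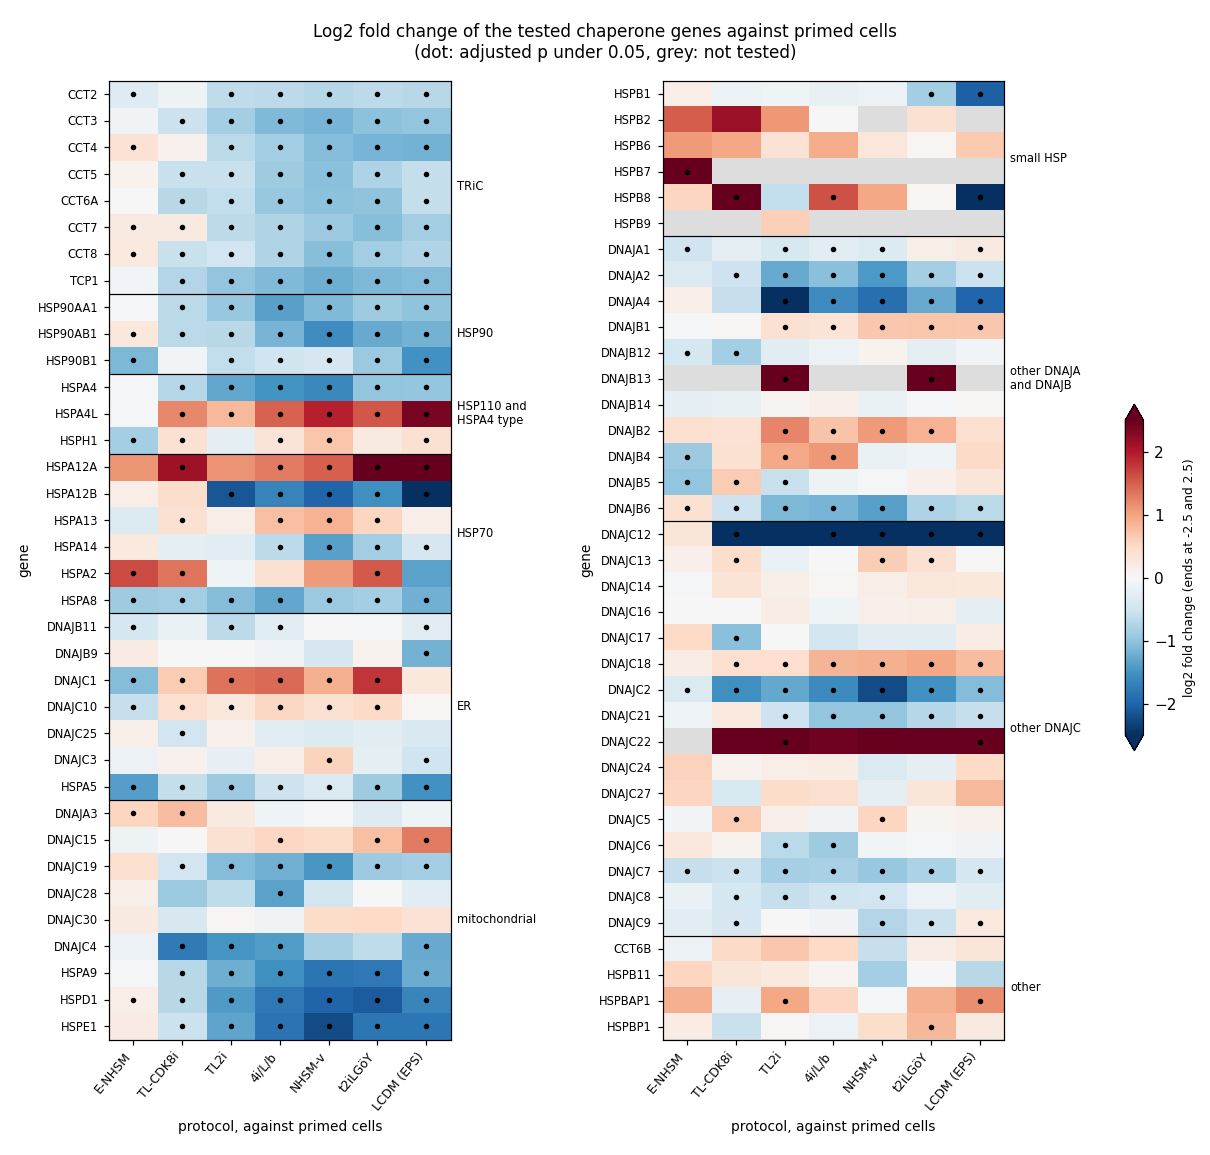
Log2 fold changes of the chaperone genes (1 line each) against primed cells in the 7 protocols (columns), coloured from blue (lower) to red (higher) with the colour ends at 2.5 in either direction, with a dot where the adjusted p was under 0.05 and grey where a gene was not tested. The blue block of lower genes is densest in the POU5F1-low protocols, where 29 to 33 members were lower and 10 to 13 higher.

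The summed level of all 80 members was lower as well. It averaged 21161 ± 223 CPM (SD, n = 6) in primed cells, 18559 ± 80.8 in E-NHSM (SD, n = 3, as for each protocol), 16019 ± 1152 in TL-CDK8i, 12691 ± 749.5 in TL2i, 11947 ± 252 in 4i/L/b, 11803 ± 365 in NHSM-v, 11490.0 ± 117 in t2iLGöY and 11196 ± 233 in LCDM (EPS). The primed libraries lay at 20859 to 21386 CPM, above every library of every protocol, and the LCDM (EPS) mean was 52.9% of the primed mean. Genes with the most counts weigh most in this total, and not every family fell. In LCDM (EPS) the summed HSP90 genes stood at 41.8% of primed. There the DNAJA and DNAJB genes summed to 102% and the DNAJC genes to 96.7%.

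Of the 68 members tested in all 7 comparisons, 4 were lower in each: HSPA8, HSPA5, DNAJC2 and DNAJC7, where 2.79% of all 12732 genes so tested were lower in each. None was higher in all 7, against 0.785% of all genes. In the POU5F1-low protocols 25 members were lower in all 5 (14.0% of 13008 genes tested there), of which 18 were also lower in TL-CDK8i and 19 were not lower in E-NHSM. Members higher in all 5 were DNAJB1, DNAJC18 and HSPA4L (10.8% of genes). A further 9 members were called nowhere, and 15 were called in both directions depending on the protocol. For these counts, and for the 18 and 19 above, the share over all genes was not computed. They are therefore not read as particular to the members.

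TRiC, the cytosolic chaperonin of 8 related subunits that folds actin and tubulin, fell as a whole in the POU5F1-low protocols. All 8 subunit genes (TCP1, CCT2, CCT3, CCT4, CCT5, CCT6A, CCT7 and CCT8) were lower in TL2i, 4i/L/b, NHSM-v, t2iLGöY and LCDM (EPS), with median log2 fold changes of -0.65, -0.88, -1.06, -1.02 and -0.81. Of all genes tested, 25.2% to 30.6% were lower in these protocols. TL-CDK8i had 1 higher and 5 lower subunit genes (22.3% and 23.8% of all genes). E-NHSM had 3 higher and 1 lower (11.1% and 15.1% of all genes). The summed level of the 8 subunit genes was 4341 ± 46.0 CPM in primed cells, 4565 ± 30.6 in E-NHSM, 3539.7 ± 299 in TL-CDK8i, 2729.6 ± 241 in TL2i, 2453 ± 70.9 in LCDM (EPS), 2421 ± 128 in 4i/L/b, 2208 ± 78.5 in t2iLGöY and 2160.0 ± 84.4 in NHSM-v.

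TCP1, the alpha subunit, ranged from 544 to 598 CPM in the primed libraries (median 574). It measured 268, 248 and 234 CPM in the 3 NHSM-v libraries, a log2 fold change of -1.22 (SE 0.07, adjusted p = 2.3e-09). Every library of TL-CDK8i and of the POU5F1-low protocols lay below every primed library. In TL-CDK8i it measured 324, 352 and 394 CPM (log2 fold change -0.73, SE 0.08, adjusted p = 2.9e-06), and in E-NHSM its log2 fold change was -0.07 (SE 0.06, adjusted p = 0.43). CCT4, the delta subunit, ranged from 381 to 463 CPM in the primed libraries (median 413). The values were 549, 535 and 522 in E-NHSM and 419, 469 and 507 in TL-CDK8i, against 174, 197 and 178 in t2iLGöY. CCT4 was thus above the primed range in E-NHSM (log2 fold change 0.36, SE 0.07, adjusted p = 0.00098) and below it in t2iLGöY (log2 fold change -1.16, SE 0.09, adjusted p = 2.8e-08).

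The subunits did not move alike in TL-CDK8i. CCT7, the eta subunit, ranged from 498 to 564 CPM in the primed libraries (median 544) and measured 587, 634 and 726 CPM in TL-CDK8i, while t2iLGöY had 243, 252 and 266. It was higher in TL-CDK8i (log2 fold change 0.22, SE 0.08, adjusted p = 0.029), and this call was lost without TL-CDK8i library 2 or 3, without primed library K2 or with the J primed libraries alone (adjusted p = 0.053 to 0.14, and 0.0009 at the lowest of 17 alternatives). CCT8, the theta subunit, was lower there at 399, 433 and 452 CPM against values from 598 to 623 CPM in the primed libraries (median 604) (log2 fold change -0.55, SE 0.07, adjusted p = 1.2e-05). CCT3, CCT5 and CCT6A were lower as well, with log2 fold changes of -0.53, -0.55 and -0.69, while CCT2 and CCT4 gave -0.13 and 0.11 and were not called. In E-NHSM, CCT4, CCT7 and CCT8 were higher (0.36, 0.23 and 0.24) and CCT2 was lower (-0.32). The E-NHSM call of CCT7 was lost without E-NHSM library 2 (adjusted p = 0.082, and 0.0012 at the lowest of 17 alternatives). CCT6B, a testis-enriched relative of CCT6A, stayed between 2.27 and 5.40 CPM on average and was called nowhere.

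TL-CDK8i and TL2i shared tamoxifen and LIF and differed in their inhibitors, and 45.0% of 14752 genes differed between them in a fit of all 27 libraries. CCT7 was 0.93 (SE 0.08, adjusted p = 4.8e-11) higher on the log2 scale in TL-CDK8i and CCT4 0.82 (SE 0.09, adjusted p = 1.6e-08) higher, whereas CCT5 gave 0.05 (SE 0.09, adjusted p = 0.66) and CCT6A -0.04 (SE 0.08, adjusted p = 0.73). E-NHSM and TL-CDK8i, the 2 protocols outside the POU5F1-low group, differed in 50.1% of genes, and CCT8 was 0.75 (SE 0.07, adjusted p = 2.6e-10) higher in E-NHSM.

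**Figure D2:**
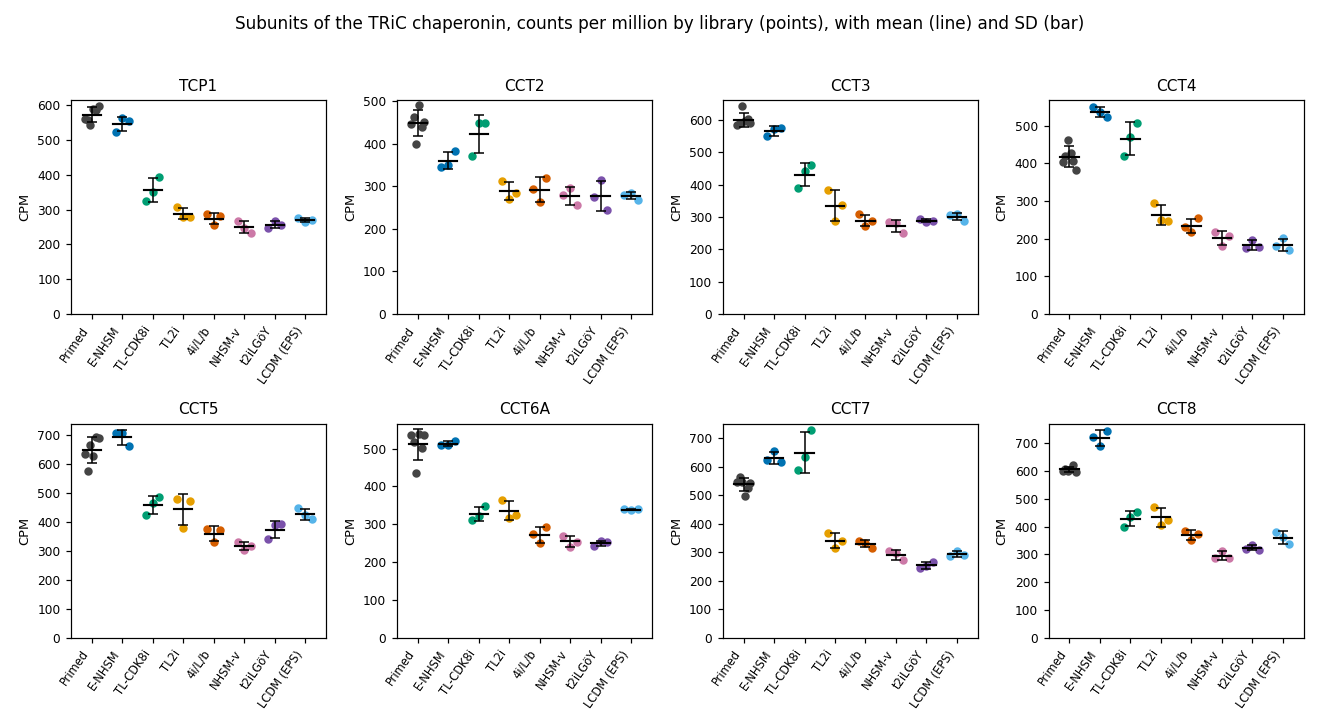
Levels of the 8 TRiC subunit genes (CPM on TMM-scaled library sizes, axes from 0) in primed cells (6 libraries) and the 7 protocols (3 each), with each point a library, the line the mean and the bar the SD. The POU5F1-low protocols lie below primed cells in all 8 panels, while in TL-CDK8i CCT2 and CCT4 stay near the primed level. CCT7 in TL-CDK8i lies above every primed library.

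HSPD1, HSPE1 and HSPA9, members that work inside mitochondria, fell in the POU5F1-low protocols as well. HSPD1 (HSP60, the mitochondrial chaperonin ring) and HSPE1 (HSP10, its lid) are neighbouring genes, and HSPA9 (mortalin) is the mitochondrial HSP70. Of the 9 mitochondrial members tested, E-NHSM had 2 higher and 0 lower, TL-CDK8i 1 higher and 5 lower, TL2i 0 higher and 5 lower, 4i/L/b 1 higher and 6 lower, NHSM-v 0 higher and 4 lower, t2iLGöY 1 higher and 4 lower and LCDM (EPS) 1 higher and 5 lower. All genes tested gave 25.6% to 28.2% higher and 25.2% to 30.6% lower in the POU5F1-low protocols. The shares were 22.3% and 23.8% in TL-CDK8i and 11.1% and 15.1% in E-NHSM. The summed level of the 9 mitochondrial members was 2381 ± 78.2 CPM in primed cells, 2559 ± 6.44 in E-NHSM, 1627 ± 149 in TL-CDK8i and 729 ± 12.7 in t2iLGöY, that is 107%, 68.3% and 30.6% of primed. TRiC stood at 105%, 81.5% and 50.9% of primed in the same protocols. HSPD1 and HSPA9 hold most of the mitochondrial sum in primed cells, so it mainly follows these genes.

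HSPD1 ranged from 1001 to 1129.9 CPM in the primed libraries (median 1081). It measured 266, 237 and 251 CPM in t2iLGöY, a 4.21-fold lower level (log2 fold change -2.08, SE 0.07, adjusted p = 7.4e-12), and 303, 263 and 262 in NHSM-v. TL2i kept 458, 378 and 389 CPM (log2 fold change -1.41, SE 0.08, adjusted p = 5.9e-09) and TL-CDK8i 643, 644 and 781 (log2 fold change -0.70, SE 0.08, adjusted p = 4.6e-06). All of these lay below the primed libraries, with no overlap. E-NHSM measured 1221, 1209 and 1199.5 CPM (log2 fold change 0.16, SE 0.05, adjusted p = 0.035), and that call was lost without E-NHSM library 1, 2 or 3, without primed library J1 or J2, without the filter on low counts, with all 8 groups in one fit or with a replicate block (adjusted p = 0.052 to 0.12, and 0.0033 at the lowest of 17 alternatives). HSPE1 ranged from 139 to 158 CPM in the primed libraries (median 148) and measured 32.5, 36.6 and 26.8 CPM in NHSM-v, a 4.70-fold lower level (log2 fold change -2.23, SE 0.12, adjusted p = 8e-10). In E-NHSM HSPE1 measured 169.8, 174 and 170.4 CPM and was not called (log2 fold change 0.21, SE 0.09, adjusted p = 0.089).

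HSPA9 ranged from 936 to 1076 CPM in the primed libraries (median 978) and measured 952, 961 and 994 in E-NHSM (log2 fold change -0.03, SE 0.06, adjusted p = 0.77) and 613, 606 and 679 in TL-CDK8i (log2 fold change -0.69, SE 0.07, adjusted p = 2.5e-06). Its lowest values were 276, 269 and 296 CPM in t2iLGöY, 3.45-fold below primed, and 293, 282 and 277 in NHSM-v, 3.52-fold below. TL-CDK8i differed from TL2i in HSPD1 by 0.75 (SE 0.09, adjusted p = 2.5e-08) on the log2 scale and E-NHSM exceeded TL-CDK8i by 0.81 (SE 0.09, adjusted p = 3.8e-09), so the 3 protocols had separate HSPD1 levels. E-NHSM and TL2i, which differed in 53.5% of genes, were 1.57 (SE 0.09, adjusted p = 2.8e-15) apart.

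Mitochondrial J-domain members went several ways. DNAJC19, a protein of the inner membrane import motor, fell in TL-CDK8i and the POU5F1-low protocols, from 27.9 to 37.4 CPM in the primed libraries (median 34.8), to 13.0, 11.3 and 12.8 CPM in NHSM-v (log2 fold change -1.46, SE 0.19, adjusted p = 7.7e-06). The TL-CDK8i call of DNAJC19 (-0.49) was lost without TL-CDK8i library 1 or 2, without primed library K3 or with the K primed libraries alone (adjusted p = 0.055 to 0.13, and 0.011 at the lowest of 17 alternatives). DNAJC15, its close relative in the inner membrane, rose instead in 4i/L/b (0.51), t2iLGöY (0.74) and LCDM (EPS). In LCDM (EPS) it measured 84.2, 65.1 and 93.4 CPM, above the primed range of 18.1 to 37.8 (log2 fold change 1.31, SE 0.20, adjusted p = 6.1e-05). The 4i/L/b call of DNAJC15 was lost without 4i/L/b library 1, 2 or 3 or without primed library J1 or K3 (adjusted p = 0.051 to 0.18, and 0.0052 at the lowest of 17 alternatives).

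DNAJA3, the mitochondrial partner of HSPA9, was higher in E-NHSM (log2 fold change 0.53, SE 0.12, adjusted p = 0.0032) and TL-CDK8i (log2 fold change 0.76, SE 0.12, adjusted p = 0.00014), with 126, 113 and 132 CPM against 54.7 to 81.6 CPM in primed cells (median 72.5). No POU5F1-low protocol had a call for it. DNAJC4, placed among the mitochondrial members here, was lower in TL-CDK8i, TL2i, 4i/L/b and LCDM (EPS), at 5.28, 4.46 and 2.22 CPM in TL-CDK8i (log2 fold change -1.77, SE 0.46, adjusted p = 0.0057). The J primed libraries held 16.6, 18.6 and 20.1 CPM and the K libraries 8.39, 9.26 and 6.03. Against the K libraries alone no DNAJC4 call held, with log2 fold changes of -1.04 in TL-CDK8i (adjusted p = 0.053), -0.75 in TL2i (0.087), -0.64 in 4i/L/b (0.14) and -0.52 in LCDM (EPS) (0.23). The TL2i call of -1.47 in the full comparison was lost without TL2i library 1 or with the K primed libraries alone (adjusted p = 0.056 to 0.087, and 0.0005 at the lowest of 17 alternatives). The 4i/L/b call of -1.39 was lost without 4i/L/b library 1 or 3 or with the K primed libraries alone (adjusted p = 0.055 to 0.14, and 0.00067 at the lowest of 17 alternatives), and the LCDM (EPS) call of -1.25 was lost without LCDM (EPS) library 2 or 3 or with the K primed libraries alone (adjusted p = 0.072 to 0.23, and 0.00065 at the lowest of 17 alternatives).

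The main cytosolic HSP70 and HSP90 genes fell together in TL-CDK8i and the POU5F1-low protocols. HSPA8 (HSC70), the housekeeping HSP70, was lower in all 7 protocols. It ranged from 3463 to 3914 CPM in the primed libraries (median 3599). It measured 1949.7, 2037 and 1981 CPM in E-NHSM (log2 fold change -0.88, SE 0.05, adjusted p = 1.8e-10), 1852, 2111 and 2245 in TL-CDK8i (log2 fold change -0.87, SE 0.07, adjusted p = 1.5e-07) and 1527, 1454 and 1585 in 4i/L/b (log2 fold change -1.30, SE 0.06, adjusted p = 4.3e-10). No protocol library reached the lowest primed library, and in 4i/L/b the level was 2.47-fold lower. The log2 fold changes of the other 4 protocols lay between -1.19 and -0.85.

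HSP90AB1, the constitutive cytosolic HSP90, ranged from 3666 to 3998 CPM in the primed libraries (median 3810.2). E-NHSM had 4742, 4440.3 and 4587 CPM, above every primed library (log2 fold change 0.26, SE 0.04, adjusted p = 0.00011). TL-CDK8i had 2382, 2352 and 2698 CPM and NHSM-v 1384, 1276 and 1343, both below every primed library (log2 fold change -0.68, SE 0.06, adjusted p = 5.6e-07 in TL-CDK8i and log2 fold change -1.54, SE 0.05, adjusted p = 2.9e-12 in NHSM-v). HSPA8 and HSP90AB1 thus had calls of opposite sign in E-NHSM and of the same sign in the other 6. HSP90AA1, the heat-inducible HSP90, ranged from 289 to 412 CPM in the primed libraries (median 337) and measured 148, 133 and 140.0 CPM in 4i/L/b (log2 fold change -1.35, SE 0.12, adjusted p = 4.4e-07). In E-NHSM it was not called (log2 fold change -0.04, SE 0.10, adjusted p = 0.81), and in the other 6 it was lower, by 1.60-fold in TL-CDK8i to 2.55-fold in 4i/L/b.

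The ER chaperones followed another order of protocols. HSPA5 (BiP, the ER HSP70 and sensor partner of the unfolded protein response) and HSP90B1 (GRP94, the ER HSP90) were lowest in E-NHSM, where the chaperonins stayed near the primed level, and in LCDM (EPS), where they fell. The summed level of the 9 ER members was 3509.8 ± 290.4 CPM in primed cells, 1669 ± 24.8 in E-NHSM and 1516 ± 34.3 in LCDM (EPS). It was 3199 ± 283 in TL-CDK8i, 2998 ± 190.3 in NHSM-v, 2864 ± 218 in 4i/L/b, 2371 ± 134 in TL2i and 2217 ± 38.7 in t2iLGöY. The same 2 protocols had the summed fibroblast markers, which include secreted collagens, at 407 to 451 and 777 to 1006 CPM, below the primed range of 1138 to 2407, and the other 5 protocols had them above it, between 2958 and 15106. Single markers did not all follow the sum. Of those tested, t2iLGöY had 3 higher and 2 lower of 6, and LCDM (EPS) had 2 higher and 4 lower of 8. The part of these markers in the ER result was not tested.

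HSPA5 ranged from 1067 to 1486 CPM in the primed libraries (median 1319). E-NHSM had 510.4, 474 and 511 CPM (log2 fold change -1.38, SE 0.10, adjusted p = 6e-09), LCDM (EPS) 462, 444 and 447 (log2 fold change -1.52, SE 0.10, adjusted p = 1.5e-08) and NHSM-v 1086, 1035 and 936 (log2 fold change -0.37, SE 0.10, adjusted p = 0.0048). The NHSM-v libraries overlapped the primed ones, being 1.29-fold lower on average, and the libraries of the other 6 protocols lay below them, by 2.86-fold in LCDM (EPS). HSP90B1 ranged from 1529 to 1865 CPM in the primed libraries (median 1734) and measured 785, 785 and 801 in E-NHSM (log2 fold change -1.12, SE 0.07, adjusted p = 1.4e-09) and 616, 589.9 and 580.5 in LCDM (EPS) (log2 fold change -1.52, SE 0.07, adjusted p = 4.6e-10). In TL-CDK8i HSP90B1 overlapped the primed range with 1493, 1798 and 1794 CPM and was not called (log2 fold change -0.07, SE 0.08, adjusted p = 0.53). The direct difference between E-NHSM and TL-CDK8i was -1.10 (SE 0.08, adjusted p = 9.2e-13) on the log2 scale. LCDM (EPS) and t2iLGöY, which differed in 27.5% of genes, were -0.58 (SE 0.08, adjusted p = 1.4e-06) apart in HSP90B1 and -0.60 (SE 0.10, adjusted p = 1.6e-05) in HSPA5.

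**Figure D3:**
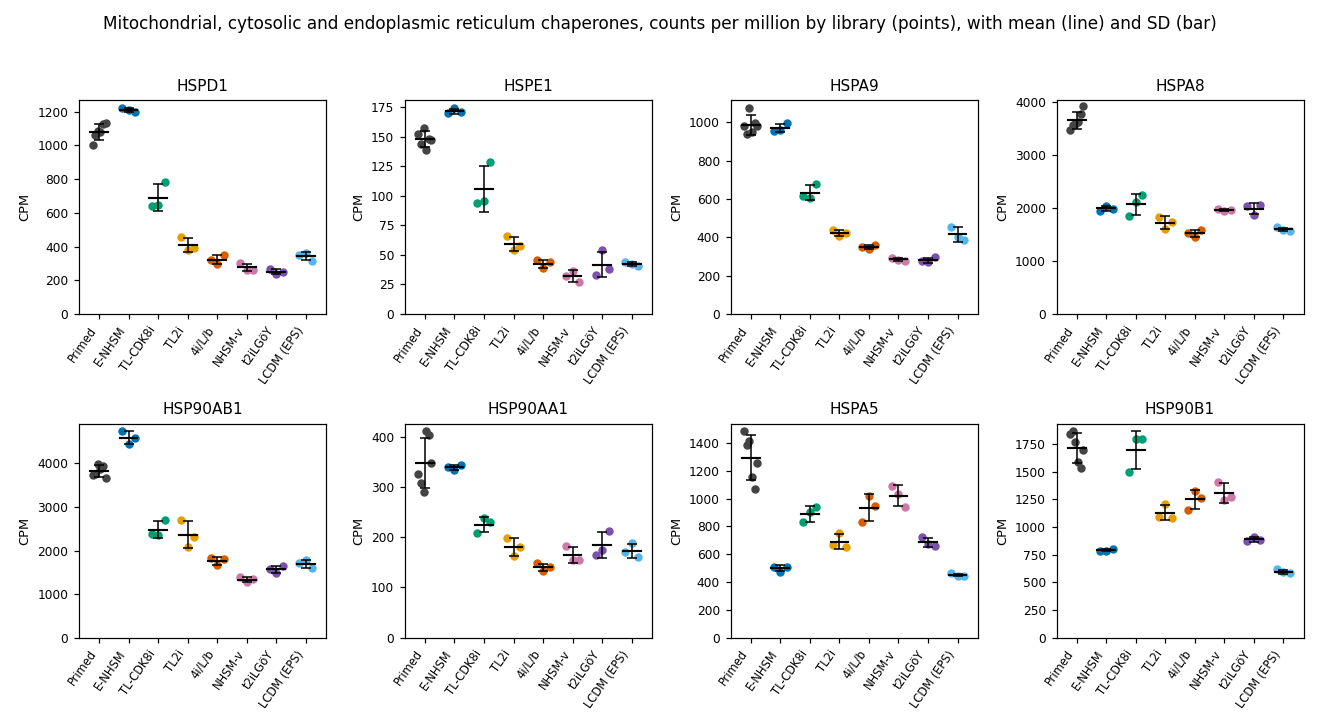
Levels of mitochondrial (HSPD1, HSPE1, HSPA9), cytosolic (HSPA8, HSP90AB1, HSP90AA1) and ER (HSPA5, HSP90B1) chaperone genes by library (CPM on TMM-scaled library sizes, axes from 0), with points for libraries, the line for the mean and the bar for the SD. E-NHSM lies near or above primed cells for HSPD1, HSPE1, HSPA9, HSP90AB1 and HSP90AA1 but below them for HSPA8, HSPA5 and HSP90B1.

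Of the 9 ER members, E-NHSM had 0 higher and 5 lower, TL-CDK8i 3 higher and 2 lower, TL2i 2 higher and 3 lower, 4i/L/b 3 higher and 3 lower, NHSM-v 4 higher and 2 lower, t2iLGöY 3 higher and 2 lower and LCDM (EPS) 0 higher and 5 lower. Over all genes tested, 25.6% to 28.2% were higher and 25.2% to 30.6% lower in the POU5F1-low protocols. The shares were 22.3% and 23.8% in TL-CDK8i and 11.1% and 15.1% in E-NHSM. Counts near these shares are not read as particular to the ER members. DNAJC1, an ER membrane J-domain protein, ranged from 13.3 to 31.7 CPM in the primed libraries (median 24.5). It measured 83.6, 68.6 and 82.3 CPM in t2iLGöY, 3.44-fold higher (log2 fold change 1.78, SE 0.24, adjusted p = 1.4e-05), and 13.1, 9.45 and 10.3 in E-NHSM, 2.12-fold lower (log2 fold change -1.08, SE 0.29, adjusted p = 0.0096). TL2i, 4i/L/b, NHSM-v and t2iLGöY lay above all primed libraries, and t2iLGöY exceeded E-NHSM by 2.83 (SE 0.22, adjusted p = 2.6e-12) on the log2 scale, 60.9% of all genes differing between these protocols. The latter pair was compared because its DNAJC1 calls were opposite, so a small adjusted p follows largely from that choice. The E-NHSM call was lost without E-NHSM library 2 or 3 or with the K primed libraries alone (adjusted p = 0.05 to 0.066, and 6e-05 at the lowest of 17 alternatives). The TL-CDK8i call (0.64) was lost without TL-CDK8i library 1, 2 or 3, without primed library J2, K1, K2 or K3, with a replicate block or with the J primed libraries alone (adjusted p = 0.056 to 0.14, and 0.0016 at the lowest of 17 alternatives).

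DNAJC10 (ERdj5), a J-domain disulfide reductase that aids ER-associated degradation, ranged from 199.8 to 244 CPM in the primed libraries (median 219). It was lower in E-NHSM, at 130.4, 162 and 149 CPM (log2 fold change -0.58, SE 0.10, adjusted p = 0.00018), and higher in TL-CDK8i and 4 POU5F1-low protocols, at 306, 337 and 328 CPM in 4i/L/b (log2 fold change 0.52, SE 0.08, adjusted p = 0.0001). LCDM (EPS) gave 0.03 and was not called. The TL2i call of DNAJC10 (0.28) was lost without TL2i library 2 (adjusted p = 0.053, and 0.0009 at the lowest of 17 alternatives). HSPA13 (STCH), a microsomal HSP70 relative, ranged from 47.3 to 67.2 CPM in the primed libraries (median 55.6), and was higher in TL-CDK8i, 4i/L/b, NHSM-v and t2iLGöY, at 110.2, 94.9 and 111 CPM in NHSM-v (log2 fold change 0.87, SE 0.14, adjusted p = 5.3e-05). The TL-CDK8i call of HSPA13 (0.38) was lost without TL-CDK8i library 2 or 3, without primed library J1, J2, J3 or K2, with a replicate block or with the K primed libraries alone (adjusted p = 0.059 to 0.18, and 0.0017 at the lowest of 17 alternatives).

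DNAJB11 (ERdj3), a soluble cofactor of BiP, was lower in E-NHSM (log2 fold change -0.44, SE 0.11, adjusted p = 0.0065), TL2i (log2 fold change -0.65, SE 0.10, adjusted p = 0.00013), 4i/L/b and LCDM (EPS). Its 4i/L/b call (-0.26) was lost without 4i/L/b library 1 or 2, without primed library J1, J2, K1 or K3, with DESeq2, with upper-quartile normalization, without the filter on low counts, with at least 10 counts in every library, with all 8 groups in one fit, with a replicate block, with the J primed libraries alone or with the K primed libraries alone (adjusted p = 0.051 to 0.26, and 0.026 at the lowest of 17 alternatives). Its LCDM (EPS) call (-0.26) was lost without LCDM (EPS) library 1, 2 or 3, without primed library J1, J2, K1 or K3, with DESeq2, without the filter on low counts, with at least 10 counts in every library, with a replicate block, with the J primed libraries alone or with the K primed libraries alone (adjusted p = 0.053 to 0.19, and 0.022 at the lowest of 17 alternatives). DNAJC3 (p58IPK), an inhibitor of eIF2 alpha kinases and ER cochaperone, rose in NHSM-v at 116, 113 and 92.9 CPM (log2 fold change 0.56, SE 0.13, adjusted p = 0.0017) and fell in LCDM (EPS) at 51.6, 50.9 and 49.2 (log2 fold change -0.49, SE 0.13, adjusted p = 0.0053), from 61.3 to 87.1 CPM in the primed libraries (median 70.3). DNAJB9 (ERdj4), a classic target of the unfolded protein response, was called in LCDM (EPS) alone of the 7, at 6.77, 3.58 and 6.77 CPM against 8.95 to 17.9 CPM in primed cells (median 13.2) (log2 fold change -1.18, SE 0.34, adjusted p = 0.0084), and that call was lost without LCDM (EPS) library 2 (adjusted p = 0.054, and 0.00066 at the lowest of 17 alternatives).

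The 3 cytosolic HSP110 genes, exchange factors of HSP70, moved in different directions. HSPA4 (APG-2), the constitutive member, ranged from 727 to 859 CPM in the primed libraries (median 768). It fell to 482, 471 and 527 CPM in TL-CDK8i (log2 fold change -0.71, SE 0.08, adjusted p = 3.9e-06) and 260.3, 260.2 and 260.2 in NHSM-v (log2 fold change -1.61, SE 0.08, adjusted p = 1.7e-10), while E-NHSM was not called (log2 fold change -0.05, SE 0.07, adjusted p = 0.65). All libraries of TL-CDK8i and the POU5F1-low protocols lay below the primed ones. HSPA4L (APG-1), a testis-enriched relative, rose in the same 6 protocols. It ranged from 12.8 to 17.5 CPM in the primed libraries (median 16.0) and measured 81.5, 73.7 and 86.5 CPM in LCDM (EPS), 5.21-fold higher (log2 fold change 2.38, SE 0.14, adjusted p = 6.7e-09). NHSM-v followed with 71.9, 47.6 and 61.2 CPM (log2 fold change 1.94, SE 0.18, adjusted p = 2.2e-07), and every library of the 6 protocols lay above every primed library. LCDM (EPS) exceeded t2iLGöY in HSPA4L by 0.85 (SE 0.18, adjusted p = 0.00049) on the log2 scale.

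HSPH1 (HSP105), the heat-inducible HSP110, ranged from 119 to 169 CPM in the primed libraries (median 147). It was below this range in E-NHSM, at 76.4, 85.2 and 80.0 CPM (log2 fold change -0.85, SE 0.12, adjusted p = 5e-05), and above it in NHSM-v, at 238, 238 and 238 (log2 fold change 0.69, SE 0.11, adjusted p = 8.3e-05). TL-CDK8i, 4i/L/b and LCDM (EPS) were called higher with 0.38, 0.33 and 0.37. The TL-CDK8i call was lost without TL-CDK8i library 2 or 3 or with the K primed libraries alone (adjusted p = 0.082 to 0.14, and 0.0008 at the lowest of 17 alternatives). The 4i/L/b call was lost without 4i/L/b library 1, 2 or 3 (adjusted p = 0.051 to 0.08, and 0.00036 at the lowest of 17 alternatives), and the LCDM (EPS) call was lost without LCDM (EPS) library 3 or with the K primed libraries alone (adjusted p = 0.055 to 0.062, and 0.00049 at the lowest of 17 alternatives). HSPH1 was -1.28 (SE 0.12, adjusted p = 3.8e-10) on the log2 scale in E-NHSM relative to TL-CDK8i.

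Among the distant HSP70 relatives, HSPA12A rose and HSPA12B fell in 4i/L/b, NHSM-v, t2iLGöY and LCDM (EPS). HSPA12A, best known from brain, ranged from 1.95 to 11.3 CPM in the primed libraries (median 4.66). It measured 46.7, 38.9 and 47.7 CPM in LCDM (EPS), 7.31-fold higher (log2 fold change 2.87, SE 0.39, adjusted p = 2.6e-05), 39.8, 34.8 and 40.4 in t2iLGöY (log2 fold change 2.68, SE 0.40, adjusted p = 4.6e-05) and 24.7, 29.3 and 27.8 in TL-CDK8i (log2 fold change 2.11, SE 0.41, adjusted p = 0.00075). Every library of every protocol lay above the primed range, although E-NHSM (1.10) and TL2i (1.12) were not called. LCDM (EPS) and t2iLGöY also had the highest summed neural markers, 6319 to 6559 and 3794 to 4142 CPM against 2336 to 2651 in primed libraries. In TL-CDK8i the sum was 2068 to 2166, under the primed range. Yet of its 6 tested neural markers 2 were higher and 1 lower, with a median log2 fold change of 0.58. The part of these markers in the HSPA12A result was not tested. The 4i/L/b call of HSPA12A (1.30) was lost without 4i/L/b library 1 or 2 (adjusted p = 0.057 to 0.11, and 0.00015 at the lowest of 17 alternatives). HSPA12B, an endothelial member, ranged from 5.39 to 10.1 CPM in the primed libraries (median 6.25) and measured 1.54, 0.943 and 1.03 CPM in LCDM (EPS) (log2 fold change -2.54, SE 0.50, adjusted p = 0.00062), and was lower in TL2i too (-2.14). Its t2iLGöY call (-1.54) was lost without t2iLGöY library 1, without primed library J2, with the J primed libraries alone or with the K primed libraries alone (adjusted p = 0.057 to 0.1, and 0.0035 at the lowest of 17 alternatives).

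HSPA2, a testis-enriched HSP70, was higher in E-NHSM, TL-CDK8i and t2iLGöY. E-NHSM had 33.9, 24.1 and 27.9 CPM (log2 fold change 1.64, SE 0.41, adjusted p = 0.0065), TL-CDK8i 22.1, 26.9 and 23.1 (log2 fold change 1.33, SE 0.45, adjusted p = 0.025) and t2iLGöY 22.5, 14.9 and 41.2 (log2 fold change 1.54, SE 0.49, adjusted p = 0.015). The primed J libraries held 13.5, 14.3 and 13.1 CPM and the K libraries 2.65, 8.85 and 3.01, so the size of the change depends on the letter. Against J alone the log2 fold changes were 1.06 in E-NHSM, 0.78 in TL-CDK8i and 0.96 in t2iLGöY, and against K alone 2.54, 2.24 and 2.43. The TL-CDK8i call was lost without TL-CDK8i library 2 or 3 (adjusted p = 0.056 to 0.086, and 0.0006 at the lowest of 17 alternatives), and the t2iLGöY call was lost without t2iLGöY library 3 (adjusted p = 0.15, and 0.00041 at the lowest of 17 alternatives). HSPA14, a ribosome-associated HSP70 relative, was lower in 4i/L/b, NHSM-v, t2iLGöY and LCDM (EPS), at 29.2, 26.5 and 29.7 CPM in NHSM-v (log2 fold change -1.36, SE 0.16, adjusted p = 3.8e-06) against 59.6 to 86.9 CPM in primed cells (median 67.7). Its LCDM (EPS) call (-0.42) was lost without LCDM (EPS) library 1, 2 or 3, without primed library K1 or K3 or with the J primed libraries alone (adjusted p = 0.051 to 0.23, and 0.0025 at the lowest of 17 alternatives).

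The small heat shock proteins had few calls. HSPB1 (HSP27), a stress-inducible chaperone that binds actin, ranged from 64.3 to 88.9 CPM in the primed libraries (median 82.1) and measured 18.4, 18.0 and 21.4 in LCDM (EPS) (log2 fold change -2.04, SE 0.14, adjusted p = 3.3e-08) and 53.5, 31.4 and 45.1 in t2iLGöY (log2 fold change -0.84, SE 0.17, adjusted p = 0.00066). The libraries of both protocols lay below the primed range, by 4.11-fold in LCDM (EPS), and the other 5 protocols had no call. LCDM (EPS) was -1.17 (SE 0.16, adjusted p = 9.1e-07) on the log2 scale relative to t2iLGöY.

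HSPB8 (HSP22), which acts with BAG3 in selective autophagy, ranged from 0 to 7.15 CPM in the primed libraries (median 4.41), with primed J3 at 0. TL-CDK8i had 28.3, 36.4 and 34.1 CPM, above every primed library and 7.34-fold higher (log2 fold change 2.88, SE 0.53, adjusted p = 0.00048), and LCDM (EPS) had 1.02, 0.519 and 0.325 (log2 fold change -2.76, SE 1.06, adjusted p = 0.038). TL-CDK8i exceeded LCDM (EPS) by 5.72 (SE 0.72, adjusted p = 5.5e-08) on the log2 scale, where 56.5% of all genes differed. These 2 protocols were compared because their HSPB8 calls were opposite, so a small adjusted p follows largely from that choice. The summed fibroblast markers ordered these 2 protocols likewise, at 8710.0 to 11281 and 777 to 1006 CPM, but the other protocols did not all keep that order. 4i/L/b had the highest sum, 11628 to 15106 CPM, with HSPB8 at 13.9, 12.2 and 14.1. NHSM-v had 7864 to 8409.5 CPM with HSPB8 at 8.23, 8.44 and 8.89. TL2i had 2958 to 5750.3 CPM, above primed, with HSPB8 at 2.25, 3.26 and 2.90. The part of these markers in the HSPB8 difference was not tested. The LCDM (EPS) call was lost without LCDM (EPS) library 1, 2 or 3, without primed library J1, J2 or K2, with a replicate block or with the J primed libraries alone (adjusted p = 0.056 to 0.13, and 0.00031 at the lowest of 16 alternatives). In that comparison HSPB8 passed the filter on low counts through the primed libraries, where it is higher, and it counts among the lower members. The 4i/L/b call of HSPB8 (1.59) was lost without 4i/L/b library 1, 2 or 3, without primed library J2, K1, K2 or K3 or with the J primed libraries alone (adjusted p = 0.053 to 0.13, and 0.00099 at the lowest of 16 alternatives). HSPB7, a heart and muscle member, was at 0 in all 6 primed libraries and measured 1.60, 2.56 and 1.08 CPM in E-NHSM, at least 5.76-fold higher against 3 counts per library. It was tested in that protocol alone, having passed the filter on low counts only through the libraries where it is high, and it is 1 of the 9 members counted as higher there. HSPB2 and HSPB6 had group means under 4 CPM and no call, and HSPB9 was tested in TL2i alone, with no call.

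**Figure D4:**
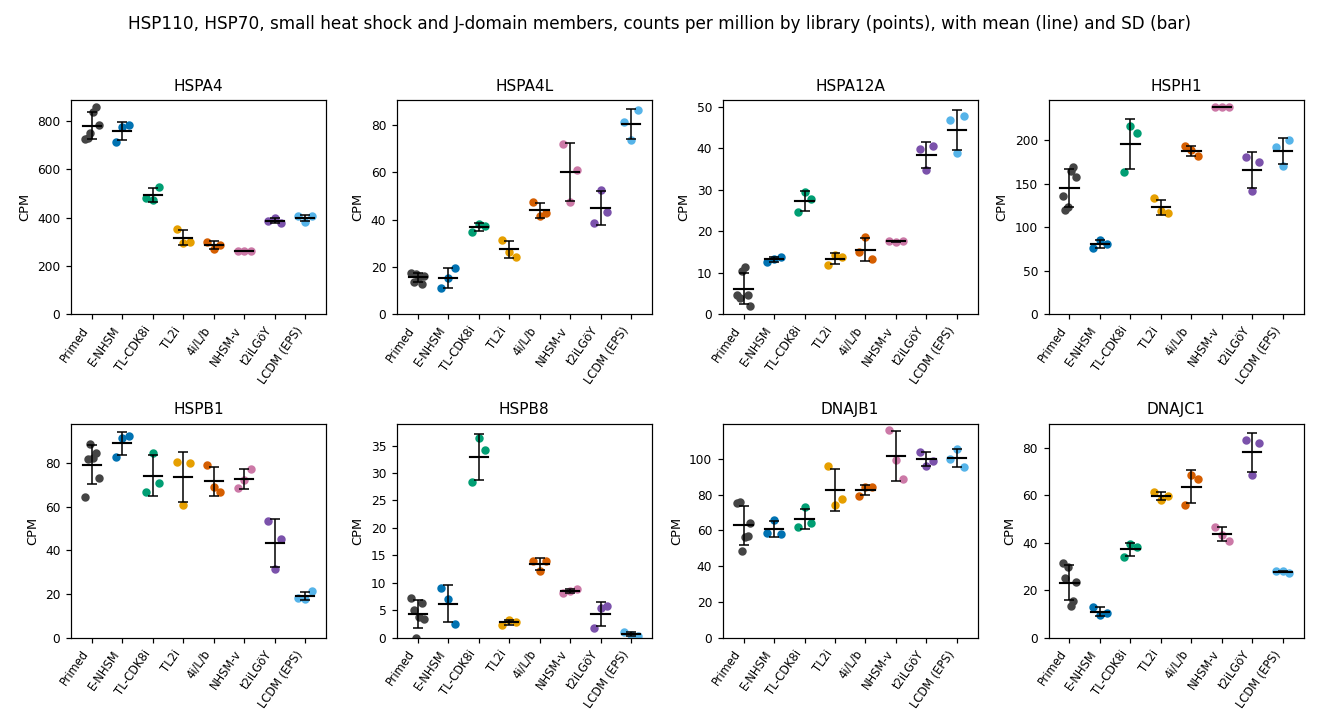
Levels of HSPA4, HSPA4L, HSPA12A, HSPH1, HSPB1, HSPB8, DNAJB1 and DNAJC1 by library (CPM on TMM-scaled library sizes, axes from 0), with points for libraries, the line for the mean and the bar for the SD. HSPA4 lies below primed cells where HSPA4L lies above them, HSPB8 stands highest in TL-CDK8i, and HSPB1 is lowest in LCDM (EPS).

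The DNAJA and DNAJB genes, which include the main cytosolic J-domain partners of HSP70, had calls in both directions in every protocol, as did all genes. DNAJB1 (HSP40), the heat-inducible member, rose in all POU5F1-low protocols. It ranged from 48.4 to 76.0 CPM in the primed libraries (median 60.7) and measured 116, 99.2 and 88.8 CPM in NHSM-v (log2 fold change 0.67, SE 0.15, adjusted p = 0.0014) and 104, 96.3 and 99.0 in t2iLGöY (log2 fold change 0.69, SE 0.14, adjusted p = 0.00083). These libraries and those of LCDM (EPS) (log2 fold change 0.68, SE 0.14, adjusted p = 0.0008) lay above the primed range. In TL2i (0.39) the call was lost without TL2i library 1, 2 or 3, without primed library J3, K1, K2 or K3, with a replicate block or with the J primed libraries alone (adjusted p = 0.052 to 0.23, and 0.0046 at the lowest of 17 alternatives). In 4i/L/b (0.35) it was lost without 4i/L/b library 1, 2 or 3, without primed library K1 or K2, with a replicate block or with the J primed libraries alone (adjusted p = 0.053 to 0.15, and 0.0016 at the lowest of 17 alternatives). DNAJB2, a neuronally enriched client-sorting member, rose in TL2i, 4i/L/b, NHSM-v and t2iLGöY, at 63.3, 61.6 and 66.9 CPM in TL2i (log2 fold change 1.22, SE 0.16, adjusted p = 2.2e-05) against 21.2 to 34.2 CPM in primed cells (median 26.6).

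DNAJB6, a potent suppressor of polyglutamine aggregation, fell in the POU5F1-low protocols. It ranged from 126 to 152 CPM in the primed libraries (median 139) and measured 51.1, 66.7 and 46.5 CPM in NHSM-v (log2 fold change -1.36, SE 0.13, adjusted p = 2.8e-07), with all libraries of the POU5F1-low protocols below primed. In E-NHSM it was higher, at 171, 178 and 192 CPM (log2 fold change 0.38, SE 0.09, adjusted p = 0.0051). DNAJA2, a constitutive HSC70 partner, fell to 32.5, 19.2 and 24.6 CPM in NHSM-v (log2 fold change -1.44, SE 0.18, adjusted p = 5.3e-06) from 58.9 to 79.8 CPM in the primed libraries (median 66.9), and its TL-CDK8i call (-0.52) was lost without TL-CDK8i library 1 (adjusted p = 0.054, and 0.0034 at the lowest of 17 alternatives). DNAJA4, a sterol-responsive member, fell furthest in TL2i, at 2.70, 3.55 and 3.25 CPM (log2 fold change -2.52, SE 0.31, adjusted p = 1.5e-05) against 13.4 to 27.7 CPM in primed cells (median 16.3).

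DNAJA1, a farnesylated HSC70 partner, had calls in both directions: lower in E-NHSM at 262, 283 and 271 CPM (log2 fold change -0.49, SE 0.08, adjusted p = 0.00023), TL2i, 4i/L/b and NHSM-v, and higher in LCDM (EPS) at 458, 424 and 459.7 (log2 fold change 0.23, SE 0.08, adjusted p = 0.026). The LCDM (EPS) call was lost without LCDM (EPS) library 1 or 3 or with the K primed libraries alone (adjusted p = 0.064 to 0.069, and 0.0029 at the lowest of 17 alternatives). The 4i/L/b call (-0.29) was lost without 4i/L/b library 2 or 3 or with the J primed libraries alone (adjusted p = 0.053 to 0.1, and 0.0019 at the lowest of 17 alternatives). DNAJB4, a relative of DNAJB1, was higher in TL2i (log2 fold change 0.95, SE 0.21, adjusted p = 0.0021) and 4i/L/b, where it measured 46.9, 48.4 and 59.1 CPM (log2 fold change 1.09, SE 0.22, adjusted p = 0.00076), and lower in E-NHSM (log2 fold change -0.92, SE 0.29, adjusted p = 0.027). The E-NHSM call was lost without E-NHSM library 1 or 2, without primed library J1 or J2 or with the K primed libraries alone (adjusted p = 0.053 to 0.16, and 0.0029 at the lowest of 17 alternatives). DNAJB5, another relative, was higher in TL-CDK8i at 133, 149 and 149 CPM (log2 fold change 0.63, SE 0.13, adjusted p = 0.0014) and lower in E-NHSM at 52.2, 43.9 and 40.2 (log2 fold change -0.98, SE 0.15, adjusted p = 9.9e-05) and TL2i (-0.56), from 69.3 to 111 CPM in the primed libraries (median 93.1).

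The DNAJC genes share only the J domain. DNAJC2 (MPP11), a ribosome-associated J-domain protein and partner of HSPA14, was lower in all 7 protocols. It ranged from 97.7 to 148 CPM in the primed libraries (median 129.5) and measured 30.6, 17.7 and 34.4 CPM in NHSM-v, 4.70-fold lower (log2 fold change -2.23, SE 0.20, adjusted p = 1.7e-07). All libraries of TL-CDK8i and the POU5F1-low protocols lay below primed, and E-NHSM had 88.2, 110.3 and 99.5 CPM (log2 fold change -0.37, SE 0.13, adjusted p = 0.044), a call that was lost without E-NHSM library 1, 2 or 3, without primed library J1, J2, K2 or K3, with upper-quartile normalization, with a replicate block or with the J primed libraries alone (adjusted p = 0.05 to 0.23, and 0.0042 at the lowest of 17 alternatives). DNAJC7, a cochaperone that binds HSP70 and HSP90, was lower in all 7, from 148 to 203 CPM in the primed libraries (median 176), to 95.5, 91.9 and 88.5 CPM in NHSM-v (log2 fold change -0.94, SE 0.12, adjusted p = 6e-06) and 129.5, 137 and 115 in LCDM (EPS) (log2 fold change -0.45, SE 0.12, adjusted p = 0.0046). DNAJC21, a ribosome biogenesis factor, was lower in the POU5F1-low protocols, by 1.99-fold in 4i/L/b (log2 fold change -0.99, SE 0.19, adjusted p = 0.00058), and was not called in E-NHSM (-0.12) or TL-CDK8i (0.24). Its TL2i call (-0.51) was lost without TL2i library 2 or 3 (adjusted p = 0.088 to 0.098, and 0.0054 at the lowest of 17 alternatives), and its LCDM (EPS) call (-0.57) was lost without LCDM (EPS) library 2 or 3 (adjusted p = 0.058 to 0.071, and 0.0018 at the lowest of 17 alternatives).

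DNAJC18, a membrane J-domain protein, rose in every protocol but E-NHSM. It ranged from 45.6 to 64.6 CPM in the primed libraries (median 52.1) and measured 114, 109 and 86.9 CPM in t2iLGöY (log2 fold change 0.97, SE 0.14, adjusted p = 3.9e-05), with every library of the 6 protocols above the primed range. The TL-CDK8i call (0.39) was lost without TL-CDK8i library 1 or 3, with a replicate block or with the K primed libraries alone (adjusted p = 0.05 to 0.12, and 0.0012 at the lowest of 17 alternatives). The TL2i call (0.43) was lost with the K primed libraries alone (adjusted p = 0.056, and 0.0012 at the lowest of 17 alternatives). DNAJC13, an endosomal trafficking protein, was higher in TL-CDK8i (0.44), NHSM-v and t2iLGöY (0.37), at 156, 148 and 183 CPM in NHSM-v (log2 fold change 0.61, SE 0.10, adjusted p = 0.00013). DNAJC9, a histone cochaperone, was lower in NHSM-v (log2 fold change -0.73, SE 0.11, adjusted p = 3.1e-05), t2iLGöY and TL-CDK8i and higher in LCDM (EPS) (log2 fold change 0.24, SE 0.09, adjusted p = 0.042), where the call was lost without LCDM (EPS) library 1, 2 or 3, without primed library J1, K1, K2 or K3, with upper-quartile normalization, with a replicate block or with the J primed libraries alone (adjusted p = 0.053 to 0.13, and 0.0065 at the lowest of 17 alternatives). DNAJC17, a splicing-associated member, was lower in TL-CDK8i alone, at 6.54, 4.23 and 5.61 CPM (log2 fold change -1.05, SE 0.34, adjusted p = 0.022), and that call was lost without TL-CDK8i library 2 or 3 or with the K primed libraries alone (adjusted p = 0.075 to 0.11, and 0.0055 at the lowest of 17 alternatives).

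DNAJC12, a cochaperone of the aromatic amino acid hydroxylases, was low throughout. It ranged from 0.443 to 2.83 CPM in the primed libraries (median 1.54) and measured 2.03, 1.22 and 3.01 in E-NHSM, where it was not called. It was at 0 in every library of NHSM-v, t2iLGöY and LCDM (EPS). In these comparisons and those of TL-CDK8i and 4i/L/b, DNAJC12 passed the filter on low counts only through the primed libraries, where it is higher. Its calls are part of the counts of lower members in these protocols. Set against 3 counts per library, the level was at least 5.58-fold lower in NHSM-v (adjusted p = 0.0033), 8.17-fold in t2iLGöY (adjusted p = 0.0034) and 10.7-fold in LCDM (EPS) (adjusted p = 0.0016). TL-CDK8i had 0.115, 0.446 and 0.193 CPM (adjusted p = 0.047), a call that was lost without TL-CDK8i library 1, 2 or 3, without primed library J1, J2, K1 or K2, without the filter on low counts, with all 8 groups in one fit or with a replicate block (adjusted p = 0.051 to 0.19, and 0.015 at the lowest of 14 alternatives). In 4i/L/b it measured 0.288, 0.243 and 0.289 CPM (adjusted p = 0.034), and this call was lost without 4i/L/b library 1, 2 or 3, without primed library J2 or K2, without the filter on low counts, with all 8 groups in one fit or with a replicate block (adjusted p = 0.05 to 0.12, and 0.013 at the lowest of 14 alternatives).

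The remaining members had few calls or none. CCT8L2, DNAJB7, DNAJB8, DNAJC5B, DNAJC5G, HSPA6 and HSPB3 passed the filter on low counts in no comparison, with group means of at most 0.688 CPM. HSPA6, a strictly heat-inducible HSP70, was among them, with a group mean of 0.591 CPM at the highest, in t2iLGöY. DNAJB13, a sperm axoneme member, was tested in TL2i and t2iLGöY only and was called in both, at means of 1.78 and 4.35 CPM. It passed the filter only where it was high, and it is part of the counts of these 2 protocols. Members with calls in few protocols were DNAJB12, lower in E-NHSM (-0.44) and TL-CDK8i (-0.86), DNAJC5, a synaptic vesicle chaperone that was higher in TL-CDK8i (0.64) and NHSM-v (0.54), and DNAJC6 (auxilin), which uncoats clathrin vesicles and was lower in TL2i (-0.67) and 4i/L/b (-0.90). DNAJC8 was lower in TL-CDK8i, TL2i, 4i/L/b and NHSM-v, by log2 fold changes of -0.43 to -0.57. DNAJC25 was lower in TL-CDK8i, DNAJC28 in 4i/L/b, HSPBAP1 was higher in TL2i and LCDM (EPS), and HSPBP1 was higher in t2iLGöY. DNAJC22, at means of 2.62 CPM in TL2i and 3.22 in LCDM (EPS) against at most 0.685 in primed libraries, was called higher in both and is part of their counts. It passed the filter only through protocol libraries where it is high, and E-NHSM was not tested. None of the calls in the preceding sentences was recomputed singly under the alternatives. The members tested throughout and called nowhere were CCT6B, DNAJB14, DNAJC14, DNAJC16, DNAJC24, DNAJC27, DNAJC30, HSPB6 and HSPB11. By family, of the 13 or 14 DNAJA and DNAJB genes tested E-NHSM had 2 higher and 5 lower, TL-CDK8i 2 higher and 3 lower, TL2i 4 higher and 6 lower, 4i/L/b 3 higher and 5 lower, NHSM-v 2 higher and 4 lower, t2iLGöY 3 higher and 3 lower and LCDM (EPS) 2 higher and 5 lower. Of the 24 or 25 DNAJC genes tested E-NHSM had 0 higher and 4 lower, TL-CDK8i 5 higher and 9 lower, TL2i 4 higher and 7 lower, 4i/L/b 4 higher and 9 lower, NHSM-v 6 higher and 7 lower, t2iLGöY 5 higher and 6 lower and LCDM (EPS) 4 higher and 7 lower. Over all genes 11.1% were higher and 15.1% lower in E-NHSM, 22.3% and 23.8% in TL-CDK8i and 25.6% and 25.2% in TL2i. The shares were 26.6% and 29.0% in 4i/L/b and 28.0% and 30.6% in NHSM-v. They were 27.1% and 27.2% in t2iLGöY and 28.2% and 28.9% in LCDM (EPS).

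The partners of the chaperones were counted from lists of 78 genes, all in the tables. Among all genes tested, 25.6% to 28.2% were higher and 25.2% to 30.6% lower in the POU5F1-low protocols. The shares were 22.3% and 23.8% in TL-CDK8i and 11.1% and 15.1% in E-NHSM. Among 22 cochaperones of HSP70 and HSP90, TL2i had 2 higher and 14 lower, 4i/L/b 2 higher and 16 lower, NHSM-v 3 higher and 14 lower, t2iLGöY 0 higher and 13 lower and LCDM (EPS) 0 higher and 16 lower, against 2 higher and 3 lower in E-NHSM and 3 higher and 9 lower in TL-CDK8i. FKBP4 (FKBP52), an HSP90 immunophilin, had a log2 fold change of 0.41 in E-NHSM, 0.70 in TL-CDK8i and -2.25 in NHSM-v. STIP1 (HOP), which bridges HSP70 and HSP90, was not called in E-NHSM (-0.03) and was lower in the other 6, from -0.67 in LCDM (EPS) to -1.13 in 4i/L/b. PTGES3 (p23), an HSP90 stabiliser, gave -0.05 in TL-CDK8i without a call and -1.48 in NHSM-v. SERPINH1 (HSP47), the collagen chaperone, was higher in NHSM-v (1.10) and lower in LCDM (EPS) (-2.38), t2iLGöY (-0.78) and E-NHSM (-0.66).

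Among 10 mitochondrial folding and protease genes, E-NHSM had 1 higher and 0 lower, TL-CDK8i 0 higher and 4 lower, TL2i 1 higher and 4 lower, 4i/L/b 1 higher and 6 lower, NHSM-v 0 higher and 6 lower, t2iLGöY 0 higher and 5 lower and LCDM (EPS) 1 higher and 5 lower. GRPEL1, the exchange factor of HSPA9, gave log2 fold changes of -1.75 in 4i/L/b and -0.07 in E-NHSM, where it was not called, and TRAP1, the mitochondrial HSP90, -1.49 in NHSM-v and 0.45 in E-NHSM. Of the 6 prefoldin genes, which hand actin and tubulin to TRiC, E-NHSM had 2 higher and 0 lower, TL-CDK8i 1 higher and 2 lower, TL2i 0 higher and 3 lower, 4i/L/b 1 higher and 3 lower, NHSM-v 0 higher and 3 lower, t2iLGöY 1 higher and 2 lower and LCDM (EPS) 2 higher and 2 lower, with PFDN6 at -1.33 and PFDN4 at -1.43 in NHSM-v. The 22 genes of ER folding and the unfolded protein response had 2 higher and 10 lower in E-NHSM, 7 higher and 6 lower in TL-CDK8i, 6 higher and 7 lower in TL2i, 6 higher and 4 lower in 4i/L/b, 11 higher and 5 lower in NHSM-v, 6 higher and 8 lower in t2iLGöY and 2 higher and 12 lower in LCDM (EPS). Beside these lists, 25.6% to 28.2% of all genes were higher and 25.2% to 30.6% lower in the POU5F1-low protocols. The shares were 22.3% and 23.8% in TL-CDK8i and 11.1% and 15.1% in E-NHSM. Counts near these shares, such as 6 higher and 7 lower of 22 in TL2i, are not read as particular to a list. CALR and PDIA3, a lectin chaperone and its disulfide isomerase, were lower in all 7 protocols, with CALR at -1.48 and PDIA3 at -1.80 in LCDM (EPS). ATF6, an ER stress sensor, and EDEM1, which extracts misfolded glycoproteins, were higher in the 6 protocols other than E-NHSM, EDEM1 reaching 1.57 in NHSM-v and ATF6 1.06.

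Of 6 heat shock factor and binding protein genes, 5 were tested. HSF1, the main factor of the heat shock response, was called in NHSM-v (0.51) and in no other protocol, with log2 fold changes between -0.27 and 0.11 in the other 6. HSF2 was lower in E-NHSM (-0.95) and higher in LCDM (EPS) (0.94), and HSBP1, a small protein that binds HSF1, was higher in TL-CDK8i (1.16), 4i/L/b, NHSM-v, t2iLGöY and LCDM (EPS). The 12 immediate early genes, which respond quickly to growth factors and stress, had 1 higher and 9 lower in E-NHSM, 5 higher and 5 lower in TL-CDK8i, 3 higher and 8 lower in TL2i, 6 higher and 3 lower in 4i/L/b, 4 higher and 6 lower in NHSM-v, 2 higher and 7 lower in t2iLGöY and 1 higher and 10 lower in LCDM (EPS). In the POU5F1-low protocols 25.6% to 28.2% of all genes were higher and 25.2% to 30.6% lower. The shares were 22.3% and 23.8% in TL-CDK8i and 11.1% and 15.1% in E-NHSM. EGR1 was lower in all 7, from -1.78 in 4i/L/b to -9.02 in t2iLGöY. The part of these genes in the chaperone results was not tested.

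**Figure D5:**
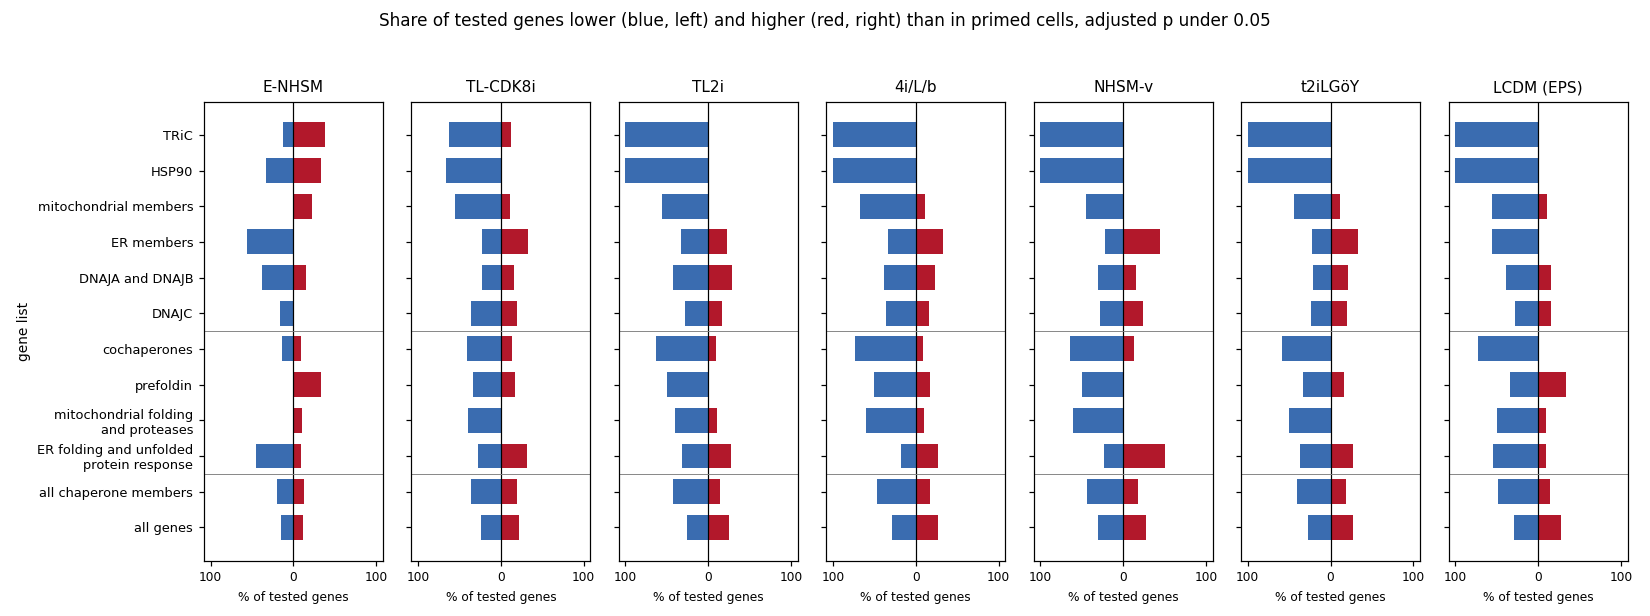
Share of the tested genes of each list (percent, axis from 0) called lower and higher than in primed cells at an adjusted p under 0.05, for the chaperone groups, the partner lists and all genes tested in each of the 7 protocols. TRiC reaches 100% lower in the 5 POU5F1-low protocols, while the ER lists hold calls in both directions.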

How the data were processed

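RNA-seq was measured in 27 libraries, 6 of primed cells and 3 of each of 7 protocols, prepared from 200 ng of RNA with a directional mRNA kit and sequenced as single reads of 75 bp. The authors deposited raw read counts per gene symbol, with no normalization and no pooling. The submitters' processing notes name bcl2fastq, cutadapt, HISAT2 and HTSeq without versions, while the genome build, the annotation, the strand setting and the handling of reads shared between genes are not given in the sources used here. These settings affect the counts of overlapping genes and of near-identical copies. All 27 columns were assigned to groups by name and 0 were left over.

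A separate fit over all genes set every protocol against the 6 primed libraries, with edgeR 4.0.16 in R 4.3.3 (limma 3.58.1): filterByExpr, TMM normalization, the quasi-likelihood test, Benjamini-Hochberg adjustment over all genes tested and a threshold of 0.05. CPM were taken on TMM library sizes, and log2 levels with a prior count of 2. SEs are the log2 fold change divided by the square root of the test's F. Differences between protocols came from a fit of all 8 groups, in which every pair of protocols was tested and 6 pairs are reported. Folds of genes at 0 in a group were set against 3 counts per library. DESeq2 1.42.0 and the other alternatives are given in the closing section. The scripts were tested on simulated data. Tables and plots were made with Python 3.11.15, pandas 2.3.3 and matplotlib 3.10.9.

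The members and the gene lists were chosen with earlier results of these data known. Members named with values were the heat-inducible genes and their constitutive counterparts, the TRiC subunits, HSPD1, HSPE1, HSPA9, HSPA5 and HSP90B1, the 3 largest rises and 3 largest falls of each comparison at a mean log2 CPM of at least 3, members called alike in all 7 comparisons, members called in both directions with an absolute log2 fold change of at least 1 each way, and members at or under 3 counts in primed cells that were called. HSPA4, HSPA12B, HSPA13, HSPA14, DNAJA1, DNAJA2, DNAJB5, DNAJB9, DNAJB11, DNAJB13, DNAJC3, DNAJC9, DNAJC10, DNAJC12, DNAJC13, DNAJC18, DNAJC19, DNAJC21, CCT6B, HSPA6, the members with calls in few protocols and the partner genes given with values were chosen after their values were seen. Of the 80 members, 79 were matched to RefSeq symbols (assembly MMU8v2.0), which were used for gene names and neighbours only, and 75 to a table of gene names. Over 36 pairs of libraries of one group, the chi-square per gene was 4.06 to 30.8, so no library was a copy of another.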

Additional observations from a re-analysis of the deposited data

Results flagged for a closer look

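In 4 of the 51 groups of primed values examined, a single primed library stood apart from the other 5 by a gap larger than Dixon's 95% value, where chance gives about 1 group in 20. CCT3 was 642.54 CPM in primed J3, against 601.44 in the nearest library, and CCT8 was 622.94 CPM in primed K2, against 606.66. CCT6A was 435.12 CPM in primed J3, against 502.26 in the nearest library. DNAJC15 was 18.142 CPM in primed J3, against 30.85.

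DNAJC1 and HSPB8 were picked because they were called in both directions, with an absolute log2 fold change of at least 1 each way. Protocols with opposite calls were then compared by edgeR's quasi-likelihood test. A small adjusted p follows largely from that choice, and the test does not address direction against primed cells. Their lower calls, DNAJC1 in E-NHSM and HSPB8 in LCDM (EPS), were lost under several alternatives. DNAJC1 was 2.8281 higher on the log2 scale in t2iLGöY than in E-NHSM (SE 0.22, adjusted p = 2.6e-12). HSPB8 was 5.717 higher on the log2 scale in TL-CDK8i than in LCDM (EPS) (SE 0.72, adjusted p = 5.5e-08).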

How the results depend on the processing

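No call of a named member changed sign under any alternative that was run. With a single library left out, the number of members called was 17 to 27 in E-NHSM (7 to 12 higher, 10 to 15 lower), 29 to 39 in TL-CDK8i (8 to 15, 20 to 25), 34 to 42 in TL2i (5 to 11, 29 to 32), 36 to 45 in 4i/L/b (7 to 12, 29 to 33), 42 to 45 in NHSM-v (12 to 15, 30 to 31), 40 to 43 in t2iLGöY (11 to 14, 28 to 30) and 34 to 45 in LCDM (EPS) (6 to 13, 27 to 33). The counts of higher members moved by over 1.5 times without TL-CDK8i library 2 (9) or 3 (8), TL2i library 1 (6), 2 (5) or 3 (6), 4i/L/b library 1 (7) or 2 (7), and LCDM (EPS) library 3 (6). Of 2304 called values so recomputed, 2166 stayed called and 138 did not.

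Requiring a log2 fold change of at least 1 in size left 5 members in E-NHSM (2 higher, 3 lower), 8 in TL-CDK8i (4, 4), 16 in TL2i (4, 12), 23 in 4i/L/b (5, 18), 23 in NHSM-v (3 higher), 18 in t2iLGöY (5, 13) and 23 in LCDM (EPS) (5, 18), as a stricter threshold must. Against the K primed libraries alone E-NHSM had 14 higher members, and with all 8 groups in one fit LCDM (EPS) had 16. The cause of these counts was not tested. On plain library totals the summed TRiC level was 4205.1 CPM in primed cells, 4666 in E-NHSM, 2021.9 in NHSM-v, 2383.7 in t2iLGöY and 2584 in LCDM (EPS), which keeps each protocol on its side of primed cells. Calls were lost for 6 of 467 values with DESeq2 and 10 of 467 with upper-quartile normalization.

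Protocol libraries did not deviate together with the primed libraries of the same number (correlation -0.0517 to 0.0498 over 42 pairs). Libraries of different protocols were not set against each other, and a batch shared by number was not tested. With the replicate block the members called were 21 in E-NHSM, 36 in TL-CDK8i, 38 in TL2i, 42 in 4i/L/b, 43 in NHSM-v, 42 in t2iLGöY and 41 in LCDM (EPS). With 3 counts as the floor, levels under about 0.141 to 0.429 CPM could not be separated from 0, and counting intervals and floors cover counting error only.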
